A study of Rattus norvegicus with 8 samples.

Results

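The genes described here are 10 genes of glucose uptake, glycolysis and lactate handling that the literature names as targets repressed by SIRT6: Slc2a1, Slc2a3, Hk1, Hk2, Pfkp, Aldoa, Pgk1, Pkm, Ldha and Pdk1. They were found on the array by gene name, older symbols allowed, so that probes named Pkm2 count as Pkm. All 10 genes were on the array, with 20 probes in all, and all 20 probes and 10 genes passed the filter on dim probes, among 28614 kept probes and 22545 tested genes. The rule that chose them uses gene names and no measured value, but the genes were chosen with earlier results of these data known. RNA came from primary hippocampal neurons of Wistar rats, prepared at postnatal day 0-1, infected on day 3 in vitro with lentiviral vectors at a multiplicity of infection of 6 and collected 7 days later, on day 10 in vitro. The 4 samples of the knockdown group received a short hairpin RNA (shRNA) against rat Sirt6, and the 4 samples of the control group received a scrambled shRNA under the same conditions. The knockdown group rests on a single hairpin, against a single control hairpin. Each sample was hybridised to its own one-colour Agilent array, and the study asked what SIRT6 does in neuronal morphogenesis. Separate cultures or animals are not named in the labels, so every p-value here reflects spread among 4 samples per group that could be technical.

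Glycolysis splits glucose into pyruvate. Transporters of the SLC2A family carry glucose across the membrane, hexokinases trap it as glucose 6-phosphate, phosphofructokinase commits it to breakdown, and aldolase, phosphoglycerate kinase and pyruvate kinase carry out later steps. Lactate dehydrogenase turns pyruvate into lactate, and pyruvate dehydrogenase kinases hold pyruvate back from the mitochondria. SIRT6 is a chromatin-bound deacetylase of histone H3, and in mouse cells it is known to restrain genes of this pathway that the transcription factor HIF-1 activates. Neurons take up glucose mainly through SLC2A3 and astrocytes through SLC2A1.

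HIF-1 is known to bind the short core motifs ACGTG and GCGTG, so the upstream sequences of 5 of these genes are shown with each match, on either strand, in capitals. They are the 250 bases before the annotated start in RefSeq on the GRCr8 assembly, 5′ to 3′ along the gene. Pfkp and Pdk1 are shown because they were higher in Sirt6 shRNA neurons, and Slc2a1 and Hk1 because they were lower. Ldha is shown because it holds as many upstream matches as Slc2a1, 4 counting overlapping ones, and was not called in either direction. Only sequences with a match are shown. Pkm was also higher but held no match, and a further Hk1 window without a match is left out.
Pfkp, chr17:68639563-68639812, plus strand: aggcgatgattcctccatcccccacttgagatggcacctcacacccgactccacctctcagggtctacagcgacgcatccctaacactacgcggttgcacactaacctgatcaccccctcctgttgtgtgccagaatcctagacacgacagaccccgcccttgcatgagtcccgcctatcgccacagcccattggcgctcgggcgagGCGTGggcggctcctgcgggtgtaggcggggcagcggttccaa
Pdk1, chr3:77113264-77113513, plus strand: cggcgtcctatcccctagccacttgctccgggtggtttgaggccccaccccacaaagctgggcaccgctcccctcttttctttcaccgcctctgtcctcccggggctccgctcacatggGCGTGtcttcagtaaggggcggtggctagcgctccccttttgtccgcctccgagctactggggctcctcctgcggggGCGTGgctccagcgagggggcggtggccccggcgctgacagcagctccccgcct
Slc2a1, chr5:138002272-138002521, plus strand: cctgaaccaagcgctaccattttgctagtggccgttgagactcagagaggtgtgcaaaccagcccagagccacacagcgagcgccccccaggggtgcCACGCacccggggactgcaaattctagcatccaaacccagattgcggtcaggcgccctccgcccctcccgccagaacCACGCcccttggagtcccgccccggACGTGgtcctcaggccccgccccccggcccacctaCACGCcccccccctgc
Hk1, chr20:30842073-30842322, minus strand: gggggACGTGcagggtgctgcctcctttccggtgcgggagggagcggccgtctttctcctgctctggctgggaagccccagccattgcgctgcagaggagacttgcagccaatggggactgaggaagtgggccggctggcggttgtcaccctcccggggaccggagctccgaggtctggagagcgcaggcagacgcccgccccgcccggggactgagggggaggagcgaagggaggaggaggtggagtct
Ldha, chr1:106507842-106508091, plus strand: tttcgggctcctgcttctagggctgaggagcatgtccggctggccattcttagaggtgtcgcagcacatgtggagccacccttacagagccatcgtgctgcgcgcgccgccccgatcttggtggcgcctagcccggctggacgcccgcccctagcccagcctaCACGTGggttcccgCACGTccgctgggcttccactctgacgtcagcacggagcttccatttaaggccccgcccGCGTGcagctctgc

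RefSeq entries with a promoter window of 300 bases, 250 before and 50 after the start, were found for 8 of the 10 genes, with 11 windows in all. Slc2a3 and Pgk1 had no entry in the table used. At least 1 match stood in 6 of the 11 windows, against 41.6% of the 33469 windows of all genes. Ldha had 6 matches, 2 of which overlap in the palindrome CACGTG at positions -87 and -86 from the start. Pdk1 had 4 matches, at -131 and -54 upstream and at 21 and 30 downstream of the start, and Slc2a1 had 4, all upstream. Pfkp had 2, at -43 and 9, and Hk1 had 1, at -245, in 1 of its 2 windows. Aldoa had 1 match in 1 of its 3 windows, and neither Hk2 nor Pkm had any. Matches therefore stood beside genes that were higher, genes that were lower and genes that were not called. A match is a run of letters, not a binding site.

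The level of a gene is given as the log2 of the background-subtracted spot signal minus the array's 75th percentile, so that 0 is the 75th percentile of the array and 1 unit is a doubling. Levels compare samples for the same probe and cannot rank genes against each other. Every array had between 60.4% and 65.3% of its probes well above background, no probe was saturated, and each of the 20 probes was well above background on all 8 arrays. All 8 arrays lay on 1 slide and came from 1 scan, per the file headers, with the Sirt6 shRNA arrays in slide row 2 and the scrambled arrays in row 1. Slide row and shRNA therefore cannot be told apart. The targeted gene matched its labels: Sirt6 read 0.55, 0.58, 0.50 and 0.46 in Sirt6 shRNA neurons, against 2.10, 2.04, 2.02 and 2.06 in scrambled neurons. That is 34.6% of the scrambled level, a log2 fold change of -1.53 ± 0.040 (SE, n = 4 each, limma, adjusted p = 5.50e-06 over all genes tested).

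Pfkp, Pdk1 and Pkm were higher in Sirt6 shRNA neurons, Hk1 and Slc2a1 were lower, and the other 5 were not called. The threshold for a call was a limma adjusted p of 0.05, with Benjamini-Hochberg adjustment over all 22545 genes tested. The 5 called genes are 50% of the 10, against 30.5% of all genes tested (15.6% higher and 14.8% lower), a wide background in which a call on 1 gene is common. The groups did not overlap for 6 of the 10 genes, 3 of them higher and 3 lower, against 33.5% of all genes. Changes were small: the median log2 fold change was 0.04 over the 10 genes and 0.02 over all genes tested, and the median size without regard to sign was 0.12, against 0.14. Of the 20 probes taken singly, 8 were called, 6 higher and 2 lower, against 28.4% of the 28614 kept probes. With the brightest probe of each gene and the reported scaling, the highest upper limit of a 95% confidence interval among the 10 was a 1.20-fold increase, for Pdk1. The lowest limit was 0.806 of the scrambled level, for Hk1. Over the 20 probes taken singly, the limits reached 1.38-fold, for a dim Pdk1 probe, and 0.751, for the second Hk2 probe. Other scalings also moved these values. Pdk1 had a log2 fold change of 0.26 ± 0.095 (SE) under spike-in scaling, and Hk1 one of -0.28 ± 0.044 under median centring.

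**Figure D1:**
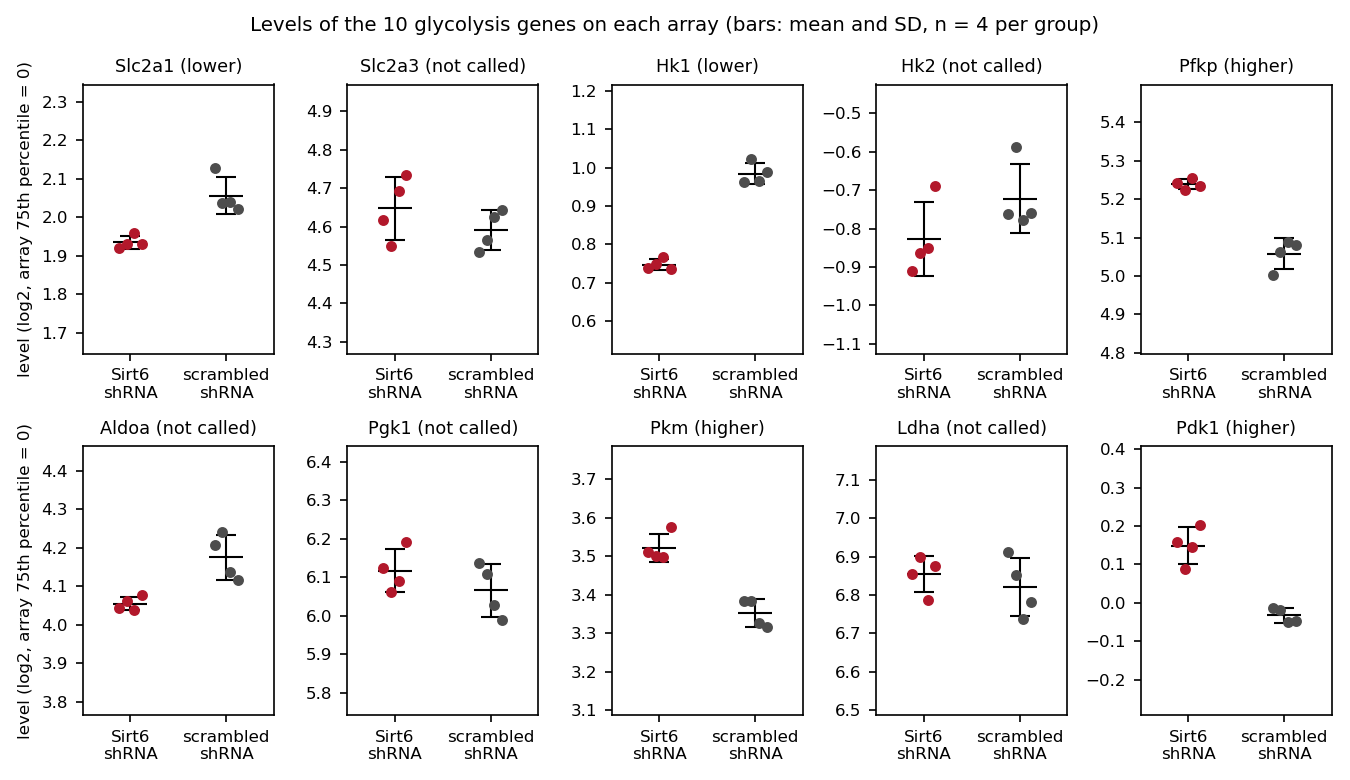
Level of each glycolysis gene (log2, 0 is the array's 75th percentile) on the 4 Sirt6 shRNA arrays (left, red) and the 4 scrambled arrays (right, grey), with bars at the mean and 1 SD; every panel spans the same log2 height. Pfkp, Pkm and Pdk1 lie higher on all 4 Sirt6 shRNA arrays, Slc2a1, Hk1 and Aldoa lie lower on all 4, and the other 4 genes overlap.

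Slc2a1 encodes GLUT1, the glucose transporter of astrocytes and of the blood-brain barrier. Its probe (chr5:139718779-139718838, rat build rn4 as given in the array files) read 1.92, 1.93, 1.96 and 1.93 in Sirt6 shRNA neurons, against 2.13, 2.04, 2.04 and 2.02 in scrambled neurons. Every Sirt6 shRNA array lay below every scrambled array, and scrambled replicate 1 was the highest of the 8. The log2 fold change was -0.12 ± 0.037 (SE, n = 4 each), or 0.919 of the scrambled level, with a limma adjusted p of 0.0383. Leaving out any 1 of the 8 arrays ended that call, with limma adjusted p between 0.0554 and 0.0933 and log2 fold changes between -0.13 and -0.10. Of 10 astrocyte markers, summed further on, 7 were called lower and 1 higher, against 14.8% and 15.6% of all genes. Whether these markers bear on the Slc2a1 value was not tested.

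Slc2a3 encodes GLUT3, the main neuronal glucose transporter. Its brighter probe (chr4:159208052-159208111) read 4.62, 4.55, 4.69 and 4.73 in Sirt6 shRNA neurons, against 4.53, 4.56, 4.62 and 4.64 in scrambled neurons. The groups overlapped, and the log2 fold change of 0.06 ± 0.051 (SE, n = 4 each) was not called (limma adjusted p = 0.440). Its 95% confidence interval ran from 0.958 to 1.13 times the scrambled level. A second, much dimmer probe (chr4:159214918-159214977) gave -0.0027 ± 0.17.

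Hk1 encodes hexokinase 1, the isoform that brain tissue mainly uses. It had the largest change of the 10 genes and the smallest adjusted p. Its probe, unmapped on rn4 in the files, read 0.74, 0.75, 0.77 and 0.74 in Sirt6 shRNA neurons, against 0.96, 1.02, 0.96 and 0.99 in scrambled neurons. The 4 arrays of each group lay close together and the groups were clearly apart. Hk1 was at 0.849 of its scrambled level, a log2 fold change of -0.24 ± 0.032 (SE, n = 4 each, limma adjusted p = 0.00129). The call held in all 8 fits that left out 1 array, with log2 fold changes from -0.24 to -0.22. By size it ranked 6841 of 22545 genes, so changes as large were common on these arrays. A probe for a hexokinase 1-like locus, LOC100364027, was lower too, at a log2 fold change of -0.53 ± 0.103 (limma adjusted p = 0.00693 over the kept probes), and signal of such a copy on the Hk1 probe could not be separated.

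Hk2 encodes hexokinase 2, the inducible isoform. Its brighter probe (chr4:116924279-116924338) read -0.91, -0.86, -0.85 and -0.69 in Sirt6 shRNA neurons, against -0.76, -0.59, -0.78 and -0.76 in scrambled neurons. One array of each group stood above its 3 fellows and the groups overlapped. The log2 fold change of -0.11 ± 0.064 (SE, n = 4 each) was not called (limma adjusted p = 0.251). The second probe (chr4:116925790-116925849) gave -0.16 ± 0.11 and was not called either (limma adjusted p = 0.299 over the kept probes).

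Pfkp encodes the platelet-type phosphofructokinase subunit, an enzyme of the committed step. Its 1 probe (chr17:74822966-74823025) read 5.242, 5.223, 5.254 and 5.234 in Sirt6 shRNA neurons, against 5.002, 5.061, 5.088 and 5.082 in scrambled neurons. The 4 Sirt6 shRNA arrays lay close together and above every scrambled array. Pfkp was 1.13-fold higher, a log2 fold change of 0.18 ± 0.034 (SE, n = 4 each, limma adjusted p = 0.00592). The call held in all 8 fits that left out 1 array.

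Aldoa encodes aldolase A, which splits fructose 1,6-bisphosphate. Its probe (chr1:185972062-185972121) read 4.04, 4.06, 4.04 and 4.08 in Sirt6 shRNA neurons, against 4.21, 4.24, 4.14 and 4.12 in scrambled neurons. The groups did not overlap, yet the log2 fold change of -0.12 ± 0.039 (SE, n = 4 each) fell just short of the call (limma adjusted p = 0.0519). Without scrambled replicate 4 the limma adjusted p was 0.0485, and it ran from 0.0485 to 0.127 over the 8 omissions. Aldoa was called in 3 of the 14 alternatives that used all arrays, namely probes well above background on all arrays (0.0470), eBayes with trend and robust options (0.0215) and array weights (0.0482). Over the 14 the limma adjusted p ran from 0.0215 to 0.738. The 2 kept probes that carry Ensembl names and resemble Aldoa gave -0.12 and -0.13, and neither was called.

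Pgk1 encodes phosphoglycerate kinase 1, the first step that yields ATP. Its probe (chrX:94340131-94340190) read 6.13, 6.06, 6.09 and 6.19 in Sirt6 shRNA neurons, against 6.14, 6.11, 6.03 and 5.99 in scrambled neurons. The ranges overlapped widely. The log2 fold change of 0.05 ± 0.048 (SE, n = 4 each) was not called (limma adjusted p = 0.460), with a 95% confidence interval from 0.959 to 1.12 times the scrambled level.

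Pkm encodes the muscle-type pyruvate kinase, whose splice forms M1 and M2 the array files do not separate by name. Its representative probe (chr8:63507957-63508016) read 3.51, 3.50, 3.50 and 3.58 in Sirt6 shRNA neurons, against 3.38, 3.38, 3.33 and 3.32 in scrambled neurons. All 4 Sirt6 shRNA arrays were above all 4 scrambled arrays. Pkm was 1.12-fold higher, a log2 fold change of 0.17 ± 0.037 (SE, n = 4 each, limma adjusted p = 0.0106), and the call held in all 8 omissions. The other 3 probes pointed the same way. The 2 that lie within the same stretch gave 0.16 (chr8:63507775-63507834, limma adjusted p = 0.0438 over the kept probes) and 0.12 (chr8:63507632-63507691, limma adjusted p = 0.0808). The probe at chr8:63504373-63504432 gave 0.21 (limma adjusted p = 0.00922).

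Ldha encodes lactate dehydrogenase A, often taken as the readout of HIF-1 driven glycolysis. Its brightest probe (chr1:97412488-97412547) read 6.85, 6.90, 6.79 and 6.88 in Sirt6 shRNA neurons, against 6.91, 6.85, 6.74 and 6.78 in scrambled neurons. The highest of the 8 values was on a scrambled array and the groups overlapped. The log2 fold change was 0.03 ± 0.049 (SE, n = 4 each, limma adjusted p = 0.640), and its 95% confidence interval ran from 0.947 to 1.11 times the scrambled level. The other 2 probes gave 0.03 (chr1:97411929-97411988) and 0.10 (chr1:97412370-97412429) and were not called. The probe that gave 0.10 shares a run of at least 30 identical bases with a probe for RGD1562690, an Ldha look-alike.

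Pdk1 encodes pyruvate dehydrogenase kinase 1, which switches off the entry of pyruvate into the citric acid cycle. Its representative probe (chr3:54320728-54320787) read 0.16, 0.09, 0.15 and 0.20 in Sirt6 shRNA neurons, against -0.01, -0.02, -0.05 and -0.05 in scrambled neurons. No values overlapped. Pdk1 was 1.13-fold higher, a log2 fold change of 0.18 ± 0.036 (SE, n = 4 each, limma adjusted p = 0.00767), and the call held in all 8 omissions. The 4 Pdk1 probes disagreed in size. The probe at chr3:54319810-54319869 gave 0.31 (limma adjusted p = 0.00945 over the kept probes) from a dim signal, and the probe spanning chr3:54302974-54303274 gave 0.15 (limma adjusted p = 0.275). The probe at chr3:54322502-54322561 read 0.03, -0.12, 0.12 and 0.04 in Sirt6 shRNA neurons, against 0.08, -0.09, 0.01 and 0.03 in scrambled neurons. It showed a log2 fold change of only 0.01 (limma adjusted p = 0.928), although it was nearly as bright as the representative probe.

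**Figure D2:**
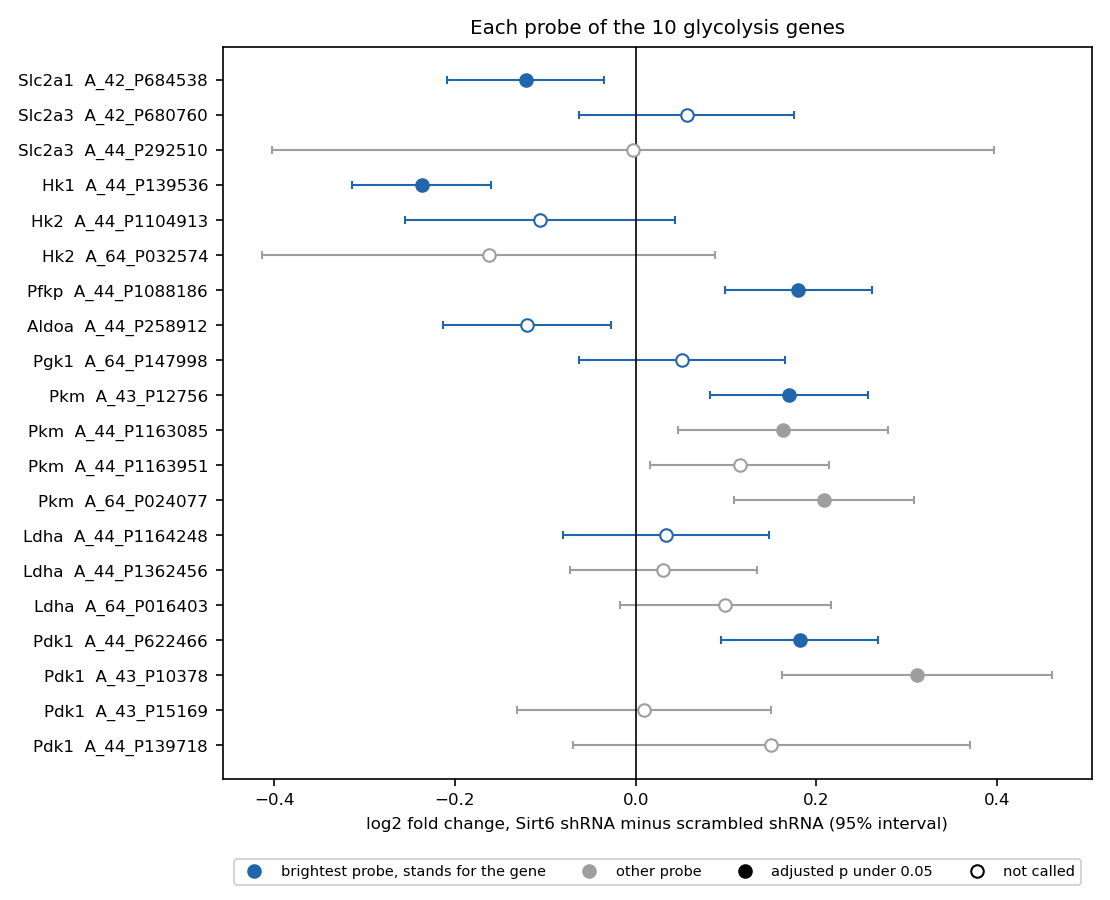
Log2 fold change (Sirt6 shRNA minus scrambled shRNA) of each of the 20 probes with its 95% confidence interval, n = 4 arrays per group; blue marks the brightest probe of each gene, grey the others, and filled symbols an adjusted p under 0.05 over the 28614 kept probes. All 4 Pkm probes lie above 0, while the 4 Pdk1 probes range from 0.01 to 0.31.

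A scaling constant is the same for every gene of an array and cancels in the distance between genes. The gap between the highest and the lowest log2 fold change, Pdk1 and Hk1, was 0.42 under the 75th percentile, under median centring and under spike-in scaling alike. The calls themselves depended on the constant. Pfkp, Pkm and Pdk1 kept their sign and lost their calls under median centring (log2 fold changes 0.14, 0.12 and 0.14; limma adjusted p = 0.0642, 0.133 and 0.113) and under spike-in scaling (0.25, 0.24 and 0.26; limma adjusted p = 0.101, 0.0934 and 0.0978). Hk1 kept its call under median centring and lost it under spike-in scaling, with a log2 fold change of -0.16 (limma adjusted p = 0.248). Slc2a1 stood at -0.05 under spike-in scaling (limma adjusted p = 0.724). Over the 14 alternatives that used all arrays, the limma adjusted p ran from 0.00851 to 0.724 for Slc2a1, from 0.000242 to 0.248 for Hk1 and from 0.00122 to 0.101 for Pfkp. It ran from 0.00196 to 0.133 for Pkm and from 0.00303 to 0.113 for Pdk1. Over all genes, the median log2 fold change was 0.02 under the 75th percentile, -0.02 under median centring and 0.10 under spike-in scaling, and the share of called genes that were higher was 51.3%, 35.2% and 64.1% in that order.

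**Figure D3:**
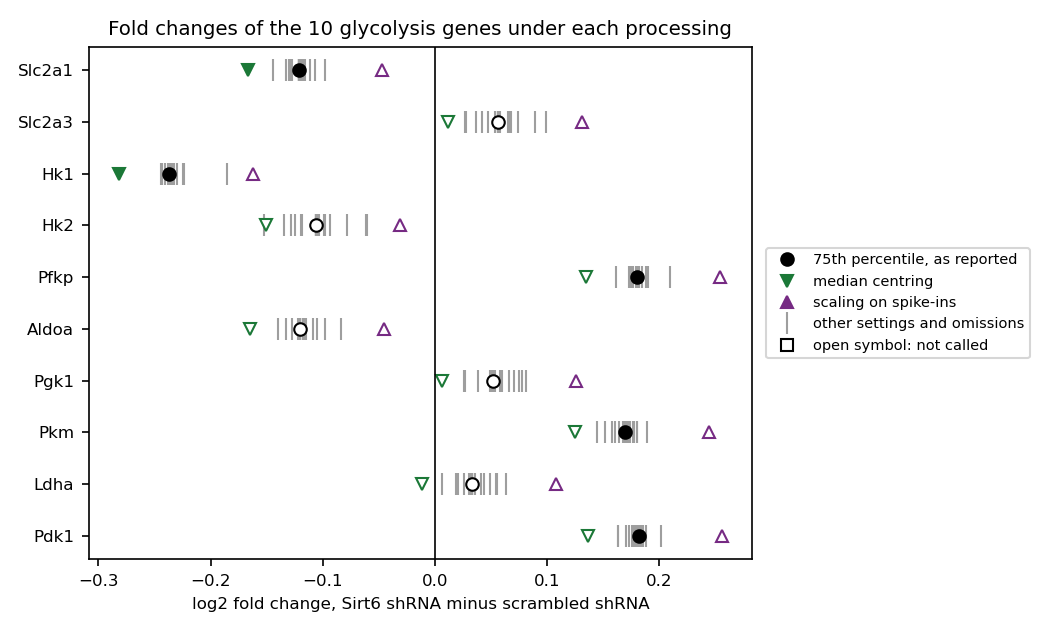
Log2 fold change (Sirt6 shRNA minus scrambled shRNA) of each glycolysis gene under the 75th percentile, median centring, spike-in scaling, the remaining settings and the 8 omissions of 1 array; filled symbols were called. Median centring lies left of the reported value and spike-in scaling right of it for every gene, and only Ldha crosses 0, at -0.01.

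The two-sided exact permutation test on the 8 arrays gave its smallest possible p, 0.0286, for the 6 genes whose groups did not overlap, Slc2a1, Hk1, Pfkp, Aldoa, Pkm and Pdk1. The other 4 gave exact p between 0.143, for Hk2, and 0.486, for Ldha. Groups without overlap, which give that smallest p, were seen for 33.5% of all genes tested. The 5 genes whose deviations from their own mean over the 8 arrays lay closest to those of Hk1 were Stxbp3, the transcript ENSRNOT00000016449, Ghitm, C7h8orf82 and App, at root mean square differences of 0.0195, 0.0205, 0.0209, 0.0218 and 0.0222 log2 units. Within the set, Aldoa at 0.0688 and Slc2a1 at 0.0711 were nearest to Hk1. These deviations hold the difference between the groups, so genes with a fold change like that of Hk1 lie near it by construction. The log2 fold changes of the 5 genes ran from -0.25 to -0.20.

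Most other enzymes of the pathway were not called, as was true of most genes tested. Of 18 listed, 16 were tested, none was higher and 4 were lower (25% called, against 30.5% of all genes). Their median log2 fold change was 0.06. The sums of astrocyte markers given at the end were lower too. Whether they bear on these values was not tested. Aldoc, the brain aldolase that astrocytes express strongly, read 6.06, 6.05, 5.95 and 5.90 in Sirt6 shRNA neurons, against 6.43, 6.40, 6.35 and 6.31 in scrambled neurons, a log2 fold change of -0.38 ± 0.051 (limma adjusted p = 0.00115). Bpgm, which makes bisphosphoglycerate, was lower as well (-0.17 ± 0.037, limma adjusted p = 0.0101), but not with spike-in scaling (limma adjusted p = 0.471). The bright housekeeping enzymes Gapdh, at 0.05, and Eno1, at 0.08, were not called; they were picked for their common use as reference genes after their values were seen.

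Of the 9 listed regulators of glycolysis, all tested, 2 were higher and 3 lower (55.6% called, against 30.5% of all genes). Hif1a, the regulated subunit of HIF-1, read 3.03, 3.10, 3.06 and 3.17 in Sirt6 shRNA neurons, against 3.42, 3.31, 3.32 and 3.25 in scrambled neurons. It was lower, at a log2 fold change of -0.24 ± 0.050 (limma adjusted p = 0.00977). Pfkfb2, which sets the phosphofructokinase activator fructose 2,6-bisphosphate, was lower as well (-0.23 ± 0.050, limma adjusted p = 0.0117), while its 3 other probes ranged from -0.14 to 0.15. Gckr, the glucokinase regulatory protein, was higher by 0.38 ± 0.095 (limma adjusted p = 0.0200) at a dim level. Hif1a and Pfkfb2 lost their calls with spike-in scaling (limma adjusted p = 0.221 and 0.268), and Gckr lost its call with normexp background correction (0.157).

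Of 20 listed HIF-1 targets outside glycolysis, 19 were tested, 5 were higher and 3 lower (42.1% called, against 30.5% of all genes), with a median log2 fold change of 0.01. Car12, a carbonic anhydrase of the cell surface, was 1.98-fold higher, at 1.884, 1.693, 1.910 and 1.995 in Sirt6 shRNA neurons, against 0.840, 0.771, 1.063 and 0.855 in scrambled neurons (log2 fold change 0.99 ± 0.083, limma adjusted p = 0.000149). Plod2, a collagen lysyl hydroxylase, was higher by 0.40 ± 0.047 (limma adjusted p = 0.000694) and Ndrg1 by 0.31 ± 0.049 (limma adjusted p = 0.00271). These 3 genes are the called targets of largest change, so they do not show the 3 that were lower. With spike-in scaling 3 HIF-1 targets were higher and 0 lower, against 2094 higher and 1174 lower of all 22545 genes. With median centring 4 were higher and 4 lower, against 2000 and 3678 of all genes.

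Of 10 listed other carriers of sugars, with Txnip, which limits glucose uptake, 9 were tested, 2 were higher and 2 lower. That is 44.4% called, against 30.5% of all genes. Slc2a13, the proton myo-inositol transporter, was at 0.49 of its scrambled level, a log2 fold change of -1.03 ± 0.055 (limma adjusted p = 2.97e-05), and its other probe gave -1.04. Slc2a5, the fructose transporter that microglia express, was called lower (log2 fold change -1.18 ± 0.285, limma adjusted p = 0.0167), but was well above background on 4 scrambled and only 2 Sirt6 shRNA arrays, so the size is not well measured. With normexp background correction it was -0.19 (limma adjusted p = 0.0275). Slc2a9, a urate and sugar carrier, was higher by 0.36 ± 0.056 (limma adjusted p = 0.00256).

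Of 20 listed genes for the fate of lactate and pyruvate, 17 were tested, 7 were lower and 2 higher (52.9% called, against 30.5% of all genes), with a median log2 fold change of -0.13. With spike-in scaling 4 were lower and 0 higher, against 1174 lower and 2094 higher of all 22545 genes. Of 10 astrocyte markers 7 were lower beside them and 1 higher, against 14.8% and 15.6% of all genes. Astrocyte sums were 208 to 232 in Sirt6 shRNA neurons and 305 to 334 in scrambled neurons, and the part of these markers was not tested. Bsg, the partner protein that lactate carriers need at the membrane, read 3.24, 3.25, 3.25 and 3.27 in Sirt6 shRNA neurons, against 3.84, 3.99, 3.88 and 3.96 in scrambled neurons, a log2 fold change of -0.67 ± 0.042 (limma adjusted p = 4.83e-05). Pdk2, the pyruvate dehydrogenase kinase most widespread across tissues, was lower (-0.57 ± 0.039, limma adjusted p = 6.94e-05), while Pdk1 was higher. Pc, pyruvate carboxylase, which in brain is an astrocyte enzyme, was lower as well (-0.54 ± 0.033, limma adjusted p = 4.77e-05). Ldha, described above, was not called.

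**Figure D4:**
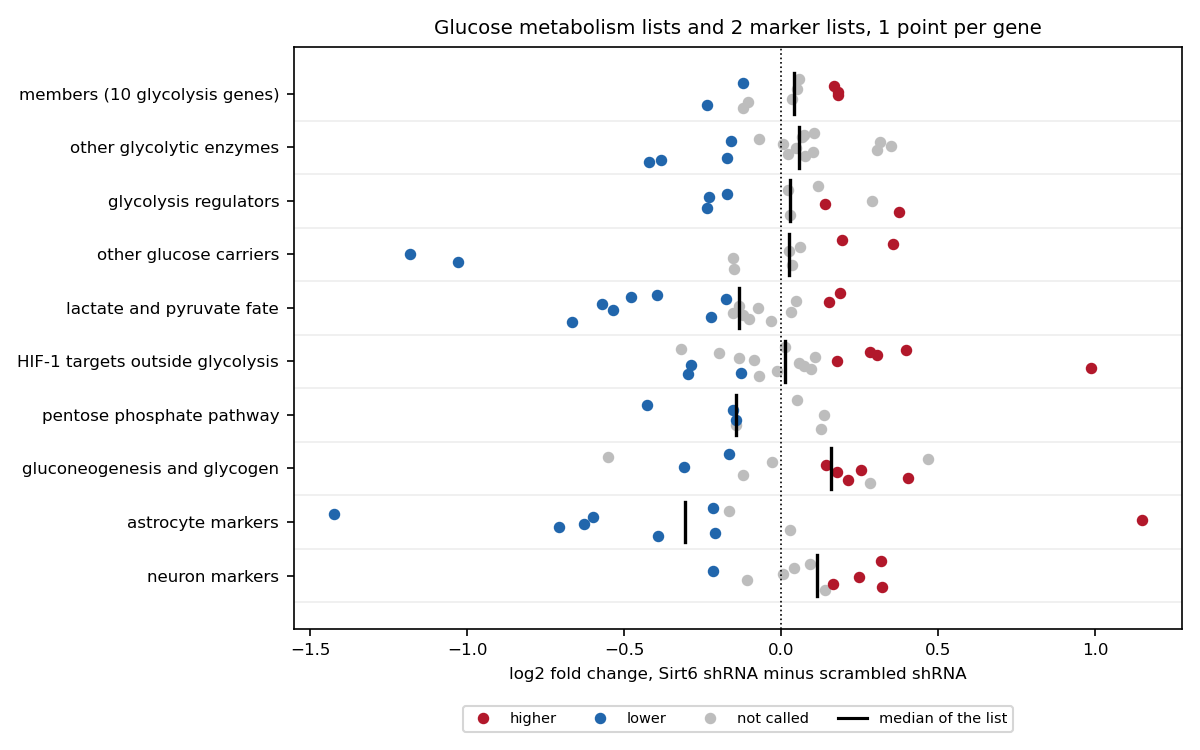
Log2 fold change (Sirt6 shRNA minus scrambled shRNA) of every tested gene of the 10 glycolysis genes, of 7 other lists of glucose metabolism or HIF-1 targets, and of astrocyte and neuron markers; red is higher, blue lower, grey not called, and the black line is the median of the list. The 10 glycolysis genes span -0.24 to 0.18, a narrower range than that of the astrocyte markers, -1.42 to 1.15.

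Markers of other cell types were also well above background. Those of astrocytes were mostly called lower in Sirt6 shRNA neurons, and those of microglia all had log2 fold changes below 0. In a bulk sample, fewer cells of a type and less RNA per cell cannot be told apart. All 10 neuron markers were well above background on all arrays, 4 were higher and 1 lower (50% called, against 30.5% of all genes). Their summed level, in linear units of the 75th percentile, ran from 155 to 174 in Sirt6 shRNA neurons and from 152 to 157 in scrambled neurons. All 10 astrocyte markers were above background too, 7 were lower and 1, Gjb6, was higher (80% called). Their sum ran from 208 to 232 in Sirt6 shRNA neurons and from 305 to 334 in scrambled neurons. Of 10 microglia markers 3 were called lower, a share near the 30.5% of all genes, but all 10 log2 fold changes were below 0. Their median was -0.48, against -0.31 for the astrocyte markers. With normexp background correction 5 microglia markers were called lower, against 3759 of all 22545 genes. The microglia sums overlapped, at 23.1 to 46.3 in Sirt6 shRNA neurons and 32.6 to 46.2 in scrambled neurons. Of 10 oligodendrocyte markers 3 were lower and 1 higher (40% called), with sums of 42.9 to 44.8 in Sirt6 shRNA neurons and 48.2 to 53.3 in scrambled neurons. Of 8 tested endothelial and mural markers 4 were higher (50% called), with sums of 11.7 to 14.2 in Sirt6 shRNA neurons and 3.93 to 4.67 in scrambled neurons. Most of that sum was Tagln, a smooth muscle gene, and without it the sums were 1.95 to 2.23 in Sirt6 shRNA neurons and 1.72 to 1.84 in scrambled neurons, an alternative chosen after seeing the data. The astrocyte, microglia and Tagln values stand beside Hk1, Slc2a1, Aldoc, Bsg and Pc, all lower, and beside Pfkp, Pkm and Pdk1, all higher. The part of these markers in those values was not tested.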

How the data were processed

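Cy3-labelled RNA of 8 samples was hybridised to one-colour arrays, per the labels' protocols. The deposited intensity values are processed spot signals. They come from the program Agilent Feature Extraction (version 11.5.1.1), named in the submitters' processing notes, and were background-subtracted and detrended per the file headers, with no scaling between arrays. The authors' deposited log2 table differs from the log2 processed signal by a constant per array (SD of the difference at most 0.0029). Its column medians were -3.70 to -3.59 and its 75th percentiles near 0.01. It served as an alternative.

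Outlier and control spots were dropped and repeated spots of a probe averaged as log2 values. From each array its own 75th percentile of 45598 non-control probes was taken away. A probe needed a signal well above background on 4 or more of the 8 arrays, in any mix of the groups. A gene was represented by its brightest such probe. Of the names, 21090 came through the systematic name in the RefSeq table of GRCr8, 2753 through a further accession, 5123 through the symbol and 351 through an old symbol. The file's own name stayed for 16260 probes. A probe with an Ensembl name that matches Pkm through an accession entered only an alternative chosen after seeing the data.

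Differences were tested with limma (version 3.58.1, lmFit then eBayes, R 4.3.3), two-sided, with Benjamini-Hochberg adjustment over 22545 genes, and single genes with the exact permutation test in Python 3.11.15. The procedure was tested on simulated data with fewer changed genes than were called here. It recovered 30% of genes changed by 0.3 log2, 74.1% of those changed by 0.6 and 87.9% of those changed by 1. Of its calls 6.87% were false. The 10 glycolysis genes changed by less than 0.3, so a gene that was not called may still have changed. The number of arrays limits the precision. The genes and lists were chosen with earlier results of these data known. Named genes are the 10 genes with every probe, Sirt6, up to 3 called genes of largest change per list, and the 5 genes most like the called member of largest change. One gene that this rule selects is not reported here. Alternatives covered background correction, scaling, filters, probe choice, eBayes options, array weights, low signals, a block on replicate number and leaving out each array.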

Additional observations from a re-analysis of the deposited data

Results flagged for a closer look

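In 3 of the 22 groups of 4 arrays examined (the 10 genes and Sirt6, 2 groups each), 1 array stood apart, by a gap to its nearest neighbour that exceeded Dixon's 95% critical value for 4 samples. By chance this happens in about 1 in 20 groups. For Pkm, Sirt6 shRNA replicate 4 read 3.58 and its 3 fellows 3.50 to 3.51 (gap 0.846 of the range). For Slc2a1, scrambled replicate 1 read 2.13 and the others 2.02 to 2.04 (gap 0.834). Without that array the Slc2a1 log2 fold change was -0.10 (limma adjusted p = 0.0740). For Hk2, scrambled replicate 2 read -0.59 and the others -0.78 to -0.76 (gap 0.902).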

How the results depend on the processing

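Over all 22545 genes, 6866 calls became 5678 with median centring and 3268 with spike-in scaling. The 3523 higher calls became 2000 and 2094, and the 3343 lower calls became 3678 and 1174, in the same order. Of the 10 glycolysis genes, 5 were called as reported, 2 with median centring and 0 with spike-in scaling. Higher calls among them were 0 under both, and lower calls were 0 with spike-in scaling and 1 with no filter on dim probes, where Slc2a1 was lost (limma adjusted p = 0.0727). With spike-in scaling the pathway lists held 16 calls in place of 40, among 89 genes tested. Over all genes the calls were 3268 in place of 6866. The smallest exact p was reached by 0 of the 10 glycolysis genes in place of 6. As reported, groups did not overlap for 33.5% of all genes, and that share under spike-in scaling is not given here. Spike-in scaling used 7 spike-in probes, and the SE of each of the 10 genes was larger there. It was 0.091 in place of 0.032 for Hk1 and 0.096 in place of 0.034 for Pfkp. The Pfkp log2 fold change was 0.25 in place of 0.18. The cause of the changed counts was not tested. Ldha turned to -0.0116 under median centring, whose constant moved every one of the 10 genes by -0.045. Leaving out 1 array gave 5310 to 6594 calls over all genes (2630 to 3287 higher, 2677 to 3307 lower), 4 to 5 among the glycolysis genes (3 to 3 higher, 1 to 2 lower), 30 to 37 in the lists, and -1.55 to -1.51 for Sirt6. The exact test was not repeated there. Same-numbered arrays share a slide column. Their deviations correlated at 0.03 to 0.16, and 4 of 8 arrays correlated best with their own number. A replicate block left 1 lower call among the glycolysis genes, Hk1, and not Slc2a1 (limma adjusted p = 0.0808). Under median centring the list medians of the regulators, the other carriers and the HIF-1 targets were -0.02, -0.02 and -0.03, below 0. The median of the 10 glycolysis genes was -0.0026 there. No named gene but Ldha changed sign under quantile normalization, median centring, spike-in scaling or normexp.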

Other observations

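Of 7 listed genes of the pentose phosphate pathway, which draws glucose 6-phosphate away from glycolysis, all were tested, 3 were lower and 0 higher (42.9% called, against 30.5% of all genes), with a median log2 fold change of -0.14. Spike-in scaling left 1 lower, against 1174 of all 22545 genes. Normexp gave 2 lower and 1 higher, against 3759 and 3669 of all genes. Of 10 astrocyte markers 7 were lower beside them and 1 higher, against 14.8% and 15.6% of all genes. The part of these markers was not tested. Taldo1, transaldolase, read 4.36, 4.38, 4.33 and 4.42 in Sirt6 shRNA neurons, against 4.90, 4.84, 4.70 and 4.76 in scrambled neurons (log2 fold change -0.43 ± 0.050, limma adjusted p = 0.000653). Rpia, ribose 5-phosphate isomerase, was lower (-0.15, limma adjusted p = 0.0240), but not with spike-in scaling (-0.08, limma adjusted p = 0.583). Pgls, which opens 6-phosphogluconolactone, was lower too (-0.14, limma adjusted p = 0.0470). Pgls was not called with spike-in scaling (-0.07, limma adjusted p = 0.629), median centring (-0.19, limma adjusted p = 0.0554) or normexp (-0.11, limma adjusted p = 0.0606).

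Of 14 listed genes of gluconeogenesis and glycogen, 12 were tested, 5 were higher and 2 lower (58.3% called, against 30.5% of all genes), with a median of 0.16. The counts were 1 higher and 2 lower under median centring, against 2000 and 3678 of all 22545 genes. Under spike-in scaling they were 3 higher and 0 lower, against 2094 and 1174 of all genes. The median of the list was 0.08 under normexp. G6pc3, the glucose 6-phosphatase of most tissues, was higher by 0.40 ± 0.053 (limma adjusted p = 0.00111), and Pck2, the mitochondrial phosphoenolpyruvate carboxykinase, by 0.25 ± 0.050 (limma adjusted p = 0.00682). Pgm1, phosphoglucomutase 1, was lower (-0.31 ± 0.041, limma adjusted p = 0.00122). With spike-in scaling neither Pck2, at 0.33 (limma adjusted p = 0.0529), nor Pgm1, at -0.23 (0.122), was called, and under median centring Pck2, at 0.21 (0.0579), was not called.

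The probe that matches Pkm only through an accession (chr8:63508061-63508120, rn4) gave a log2 fold change of 0.14 (limma adjusted p = 0.0437 over the kept probes). Of 13 kept probes for look-alikes of Hk1, Aldoa, Pgk1, Pkm and Ldha, 1 was called, the hexokinase 1-like locus named above, and the others ranged from -0.13 to 0.14.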
